A study of Mus musculus with 12 samples.

Results

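The interleukin 6 (IL-6) family comprises cytokines that signal through the shared receptor subunit gp130. The set described here held 10 genes. The ligand genes were Il6, Il11, Lif, Osm and Clcf1, and the receptor genes were Il6ra, Il11ra1, Osmr, Lifr and Il6st, the last of which encodes gp130. They were taken by gene name from the array's own annotation, in which 12 of 55681 probes carried one of these names. Of these 12 probes, 11 gave a signal well above background throughout 1 group or more, and 9 of the 10 genes entered a test over 22769 genes. Osm was the exception.

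Expression was measured in the aortas of male mice of mixed 129S5/SvEvBrd, C57BL6 and SJL strain on 12 one-colour microarrays. All mice were homozygous for a floxed Socs3 allele. Socs3 encodes a feedback inhibitor that binds gp130 and restrains its signal to the transcription factor Stat3. Mice labelled smSocs3-KO also carried Cre recombinase under the SM22 promoter, which drives deletion in smooth muscle, and littermates without Cre served as WT. Per the methods, the mice were 11 to 14 weeks old. Before challenge, 3 arrays came from WT mice and 3 from smSocs3-KO mice, and a further 3 of each came from mice infused for 3 days with BAPN at 150 mg/kg/day together with AngII at 1000 ng/kg/min. BAPN inhibits the crosslinking of collagen and elastin, and AngII is a pressor hormone. The combination is used as a model of aortic dissection. The sources used here do not say whether each array held the RNA of 1 mouse, so p-values measure the spread between arrays. Because the tissue was whole aorta, fewer cells of a type and less RNA per cell cannot be told apart.

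Cytokines of this family first bind a receptor of their own, such as the IL-6 receptor alpha chain or the IL-11 receptor alpha chain, and the complex then engages gp130. Oncostatin M and leukaemia inhibitory factor instead use the Osmr and Lifr chains paired with gp130. Jak kinases on gp130 then phosphorylate Stat3, and Socs3, itself a Stat3 target, ends the signal. In the vessel wall, IL-6 is known as a product of smooth muscle cells, fibroblasts and macrophages.

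Several facts about the arrays bear on all results. The signal of a probe is given throughout as the log2 intensity minus the 75th percentile of its array, so a value of 0 is the brightness below which 75% of spots lie. Levels of different probes cannot be set against each other. The 6 WT arrays and replicate 1 of smSocs3-KO before challenge lay on 1 slide, and the other 5 smSocs3-KO arrays lay on a second slide that was scanned at another time. At day 3 the genotype and the slide therefore cannot be told apart, whereas both challenge responses can be read within a slide. A slide term in the model rests only on the smSocs3-KO arrays before challenge, 1 on the first slide and 2 on the second. Day 3 genotype differences with the slide as a block therefore hang on that 1 array and do not separate genotype from slide. WT replicate 4 at day 3 stood nearer to the unchallenged arrays than the other day 3 arrays did for several members. Smooth muscle markers were well above background on all 12 arrays, and Acta2 ranged from 9.01 to 10.1.

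Socs3, the targeted gene, was not lower on the arrays labelled smSocs3-KO. Before challenge its signal was 0.15, 0.17 and 0.58 in WT and 0.10, 0.97 and 1.29 under the smSocs3-KO label. At day 3 it was 2.01, 2.13 and 0.47 in WT and 3.11, 2.09 and 3.93 under the smSocs3-KO label. The probe lies at chr11:117827480-117827539 (mm9, minus strand), and the sources used here do not say whether this stretch is deleted, so it does not check the deletion. The genotype below is that of the labels.

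Promoter sequences were at hand for 8 of the 10 members, with 11 start sites, from RefSeq on GRCm38.p6. The windows ran from 250 bases before to 50 bases after each start. The letters searched on both strands were TTCNNNGAA for STAT, TTGCNNAA for C/EBP, TGA and TCA around any 1 base for AP-1, and GGG and TTTCC around any 2 bases for NF-kB. These letters do not overlap between the matches found. The AP-1 letters were in windows of 4 members, Il6, Il11, Lif and Osmr, and in 7.81% of all 32851 promoters. Il6 alone among the members also held the C/EBP letters, found in 10.8% of all promoters, and the NF-kB letters, found in 1.63%. No member's window held the STAT letters, which were in 8.3% of all promoters. A match is a description of letters and not a bound site. The 250 bases before the start of the 3 ligand genes with a match are shown because Il6 and Il11 were among the members that rose with challenge and Lif was not, with matches in capitals. For Il6 this is chr5:30012864-30013113 (plus strand), for Il11 chr7:4778142-4778391 (minus strand) and for Lif chr11:4257318-4257567 (plus strand), each written 5′ to 3′.
Il6: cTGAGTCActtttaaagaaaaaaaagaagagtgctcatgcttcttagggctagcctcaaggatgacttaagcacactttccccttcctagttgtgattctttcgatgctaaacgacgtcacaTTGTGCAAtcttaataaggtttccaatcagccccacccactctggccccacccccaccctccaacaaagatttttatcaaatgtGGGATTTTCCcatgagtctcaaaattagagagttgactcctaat
Il11: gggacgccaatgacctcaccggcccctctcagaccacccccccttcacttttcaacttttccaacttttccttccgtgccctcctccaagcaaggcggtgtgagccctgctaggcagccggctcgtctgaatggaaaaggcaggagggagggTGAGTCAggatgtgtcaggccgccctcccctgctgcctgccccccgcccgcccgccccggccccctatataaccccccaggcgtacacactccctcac
Lif: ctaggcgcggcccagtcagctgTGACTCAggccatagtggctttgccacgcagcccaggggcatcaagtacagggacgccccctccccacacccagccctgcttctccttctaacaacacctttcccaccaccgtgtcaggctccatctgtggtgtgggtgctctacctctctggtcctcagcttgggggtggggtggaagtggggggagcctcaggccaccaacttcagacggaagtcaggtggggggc
From the 5′ end, the capitals in Il6 are the AP-1, C/EBP and NF-kB letters, which begin 249, 128 and 44 bases before the start. The capitals in Il11 and Lif are AP-1 letters that begin 98 and 228 bases before the start. The Osmr match began 3 bases after the start. Il11 has another start upstream on the chromosome, so its window here lies within the longer gene model.

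Il6 had the widest range of the family. Before challenge its signal was -6.12, -6.63 and -6.70 in WT, where the probe was not well above background on any array. The smSocs3-KO arrays before challenge gave -2.77, -1.52 and -2.03, all well above background. At day 3 the WT arrays gave 2.46, 3.34 and -3.58, and the smSocs3-KO arrays gave 2.62, -0.59 and 3.41. In order, WT before challenge lay lowest and apart from every other group, WT replicate 4 at day 3 lay below the smSocs3-KO arrays before challenge, and the day 3 arrays of both genotypes overlapped. The probe, which lies at chr5:30346367-30346426 (mm9), had 2 spots per array.

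In WT, Il6 at day 3 was at least 42.7-fold higher than before challenge, by a bound that depends on the background subtraction and the floor chosen. This bound sets the mean of the day 3 arrays, 0.74 ± 3.76 (SD, n = 3), against -4.68, the mean of the lowest signals that were well above background on the WT arrays before challenge, whose own Il6 values averaged -6.48 ± 0.32 (SD, n = 3). With 1 day 3 array left out, the bound was at least 23.6-fold without replicate 1, 17.4-fold without replicate 3 and 191-fold without replicate 4. The fitted difference, which includes signals below background, was 7.22 on the log2 scale (SE 1.55, adjusted p = 0.0362 by limma) and 3.61 with normexp background correction (adjusted p = 0.0932). That call was lost when 1 of WT replicates 1, 2 or 3 before challenge, WT replicates 1 or 3 at day 3, or smSocs3-KO replicate 4 before challenge was left out, with adjusted p from 0.059 to 0.165, whereas it was 0.000397 without WT replicate 4 at day 3. Under the smSocs3-KO label Il6 differed by 3.92 (SE 1.55, adjusted p = 0.162), and every day 3 array lay above every array before challenge. Without WT replicate 4 at day 3, which enters this fit only through the shared spread, the adjusted p was 0.0243, and of 23 alternatives only this 1 passed. Averaged over both genotypes, Il6 rose at least 25.4-fold (4.67 on the log2 scale) with the WT arrays before challenge set to the same bound. The fitted value was 5.57 (SE 1.09, adjusted p = 0.00949) and 3.40 with normexp (adjusted p = 0.0146). Normexp adds an offset of 50, and its fitted differences over all arrays lie below the bounds from all arrays. The bounds therefore do not hold for every background correction.

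Before challenge Il6 was also at least 5.95-fold above WT on the arrays labelled smSocs3-KO by the same bound, with means of -2.11 ± 0.63 and -6.48 ± 0.32 (SD, n = 3 each). The difference did not pass the adjusted threshold over all genes (fitted log2 4.38, 95% interval 0.96 to 7.79, adjusted p = 1 by limma, and 1.14 with normexp). The normexp value lies below the bound. On the slide that held WT arrays, the single smSocs3-KO array read -2.77, at least 3.74-fold above the 3 WT arrays by the same bound. Markers of mesothelium, the lining outside the vessel, were brighter on the same arrays. The mean over all 6 mesothelial genes, as a log2 difference from WT before challenge, ranged from -1.66 to 0.935 in WT and from 1.36 to 2.86 under the smSocs3-KO label before challenge. Their summed linear signal, as a multiple of the 75th percentile, ranged from 3.57 to 21.1 and from 25.9 to 59.1 in the same groups. None of the 6 passed the adjusted threshold in the genotype difference before challenge. By limma, 5 of the 6 had p under 0.05 there, as did 997 of 22769 genes. At day 3 this also held for 5 of the 6, and for 3765 of all genes. The part of the mesothelial genes in the Il6 values was not tested. At day 3 the genotype difference in Il6 was 1.07 (SE 1.55, adjusted p = 0.772), and it turned to -1.08 without WT replicate 4.

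Il11, a cytokine of fibroblasts and smooth muscle cells with a known role in fibrosis, rose at day 3. Before challenge its signal was -3.35, -2.78 and -3.40 in WT and -3.35, -3.98 and -3.00 under the smSocs3-KO label. At day 3 the smSocs3-KO arrays gave -0.58, -1.76 and -1.18, all above the arrays before challenge. The WT arrays at day 3 gave -1.02, -0.22 and -3.41, of which replicate 4 lay below all WT arrays before challenge. The mean challenge response was 1.95 (3.86-fold, SE 0.47, adjusted p = 0.0176 by limma). Taken singly, the response was 1.62 in WT (SE 0.67, adjusted p = 0.152) and 2.27 under the smSocs3-KO label (SE 0.67, adjusted p = 0.088). Without WT replicate 4 at day 3 these became 2.55 (adjusted p = 0.00414) and 2.27 (adjusted p = 0.00809), and without WT replicate 3 at day 3 the WT response was 0.96 (adjusted p = 0.354). With normexp the mean response was 1.02 (adjusted p = 0.0264), the WT response 0.89 and the smSocs3-KO response 1.16.

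Clcf1 encodes a cytokine that acts through the Cntfr, Lifr and gp130 chains. Its signal in WT was -3.31, -2.69 and -3.06 before challenge and -1.79, -1.66 and -2.86 at day 3. The smSocs3-KO arrays gave -3.08, -2.75 and -2.44 before challenge and -2.10, -2.77 and -2.01 at day 3. In both genotypes 1 day 3 array lay within the range of the arrays before challenge. The mean response of 0.69 (SE 0.24, adjusted p = 0.0589 by limma) did not pass, and it was 0.88 without WT replicate 4 at day 3 (adjusted p = 0.00875) and 0.81 without smSocs3-KO replicate 3 at day 3 (adjusted p = 0.0432). With normexp it was 0.25 (adjusted p = 0.208), and with quantile normalization 0.90 (adjusted p = 0.0343). Its WT response was 0.92 (SE 0.34, adjusted p = 0.121) and became 1.30 without replicate 4 (adjusted p = 0.0157) and 0.40 with normexp (adjusted p = 0.278). It was 0.76 without replicate 1 at day 3 (adjusted p = 0.358) and 0.69 without replicate 3 (adjusted p = 0.269).

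The other 2 ligands were dim. Lif, which encodes leukaemia inhibitory factor, read -2.17, -3.09 and -3.22 in WT before challenge and -2.79, -1.85 and -4.45 at day 3, the last of which was not well above background. The smSocs3-KO arrays read -1.49, -3.81 and -3.74 before challenge and -3.28, -4.23 and -3.24 at day 3. All 4 groups overlapped, and the mean challenge response was -0.39 (95% interval -1.52 to 0.74, adjusted p = 0.585 by limma). Osm, which encodes oncostatin M, a product of macrophages and neutrophils, was well above background on 1 of 12 arrays, smSocs3-KO replicate 2 at day 3. Its signal ranged from -6.57 to -4.19 over the arrays, and it was not tested.

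Among the receptors, Osmr, which pairs with gp130 to form the oncostatin M receptor, differed between groups with the least overlap. In WT its signal was 2.31, 2.31 and 2.58 before challenge and 3.49, 3.58 and 2.75 at day 3. On the smSocs3-KO arrays it was 3.06, 3.05 and 3.06 before challenge and 4.20, 3.96 and 4.86 at day 3. In order, WT before challenge was lowest and smSocs3-KO at day 3 was highest, each apart from all other arrays, while WT replicate 4 at day 3 fell below the smSocs3-KO arrays before challenge. Osmr rose by 1.08 in the mean challenge response (2.11-fold, SE 0.19, adjusted p = 0.00712 by limma), a call that all 23 alternatives kept. In the smSocs3-KO response it rose by 1.28 (2.44-fold, SE 0.26, adjusted p = 0.0394). That call was lost without any single one of the WT arrays before challenge, the smSocs3-KO arrays before challenge or smSocs3-KO replicates 2 and 5 at day 3, with adjusted p from 0.0665 to 0.123. Blocking on slide left it at 1.29 and ended the call (adjusted p = 0.114). In WT it was 0.87 (SE 0.26, adjusted p = 0.0749) and 1.13 without replicate 4 at day 3 (adjusted p = 0.0137). Without replicates 1 or 3 at day 3 it was 0.76 (adjusted p = 0.265) and 0.72 (adjusted p = 0.181). The genotype differences were 0.66 before challenge (SE 0.26, adjusted p = 1) and 1.07 at day 3 (SE 0.26, adjusted p = 0.0857), and neither passed. On the first slide, the smSocs3-KO array before challenge read 3.06 against 2.31 to 2.58 in WT.

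Il6ra, the binding chain for IL-6, was high in smSocs3-KO at day 3. Its signal was 2.04, 2.03 and 1.78 in WT before challenge, 1.68, 1.91 and 1.74 in WT at day 3, and 2.15, 1.38 and 1.69 under the smSocs3-KO label before challenge. The smSocs3-KO arrays at day 3 gave 2.74, 2.71 and 3.28, above all 9 other arrays, and the other groups overlapped. Il6ra rose under the smSocs3-KO label by 1.17 (2.25-fold, SE 0.22, adjusted p = 0.0347 by limma), and by 1.38 within the second slide. At day 3 it was higher under the smSocs3-KO label than in WT by 1.13 (2.20-fold, SE 0.22, adjusted p = 0.0437). With the slide as a block this difference was 1.76 and did not pass (adjusted p = 0.221). In WT the challenge response was -0.18 (95% interval -0.67 to 0.32, adjusted p = 0.639). The difference between both responses was 1.35 (SE 0.32, 95% interval 0.65 to 2.04), which did not pass after adjustment over all genes (adjusted p = 0.659 by limma). The smSocs3-KO call was lost without any single one of the WT arrays before challenge, smSocs3-KO replicates 3 and 4 before challenge or smSocs3-KO replicates 2 and 5 at day 3. The day 3 call was lost without any single one of the 6 WT arrays, smSocs3-KO replicate 4 before challenge or the 3 smSocs3-KO arrays at day 3. Their adjusted p reached 0.113 and 0.151, each without smSocs3-KO replicate 5 at day 3. Averaged over both genotypes, the response was 0.50 (1.41-fold, SE 0.16, adjusted p = 0.0448), a call kept in 8 of 23 alternatives and lost when any array other than smSocs3-KO replicate 1 before challenge or replicate 3 at day 3 was left out.

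Il6st, which encodes the shared subunit gp130, was likewise highest in smSocs3-KO at day 3. Its signal was 3.90, 4.12 and 4.07 in WT before challenge, 3.87, 3.53 and 4.06 in WT at day 3, and 3.77, 4.24 and 4.14 under the smSocs3-KO label before challenge. The smSocs3-KO arrays at day 3 gave 4.78, 4.37 and 4.78, again above all other arrays. The challenge response was 0.59 under the smSocs3-KO label (SE 0.20, adjusted p = 0.115 by limma) and -0.21 in WT (SE 0.20, adjusted p = 0.512). The genotype difference at day 3 was 0.83 (1.77-fold, SE 0.20, adjusted p = 0.0788), and 0.95 without WT replicate 4 (adjusted p = 0.0454). With the slide as a block it was 0.40 (adjusted p = 0.534). The difference between both responses was 0.81 (SE 0.28, 95% interval 0.19 to 1.42, adjusted p = 0.883 by limma).

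Il11ra1, the binding chain for IL-11, fell at day 3. In WT its signal was 7.55, 7.45 and 7.52 before challenge and 6.80, 6.86 and 7.32 at day 3. Among the smSocs3-KO arrays it was 7.49, 7.49 and 7.38 before challenge and 7.10, 7.14 and 6.75 at day 3. Day 3 arrays lay below the arrays before challenge in both genotypes, and the genotypes overlapped at both times. The mean challenge response was -0.48 (0.715-fold, SE 0.12, adjusted p = 0.021 by limma), and the responses were -0.51 in WT (SE 0.17, adjusted p = 0.0987) and -0.45 under the smSocs3-KO label (SE 0.17, adjusted p = 0.153). The mean response did not pass without WT replicate 1 before challenge (adjusted p = 0.0567) or WT replicate 1 at day 3 (adjusted p = 0.0581). The WT response was -0.68 without replicate 4 at day 3 (adjusted p = 0.0195), -0.42 without replicate 1 (adjusted p = 0.326) and -0.45 without replicate 3 (adjusted p = 0.212). The ligand Il11 and this receptor changed in opposite directions in the mean response.

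**Figure D1:**
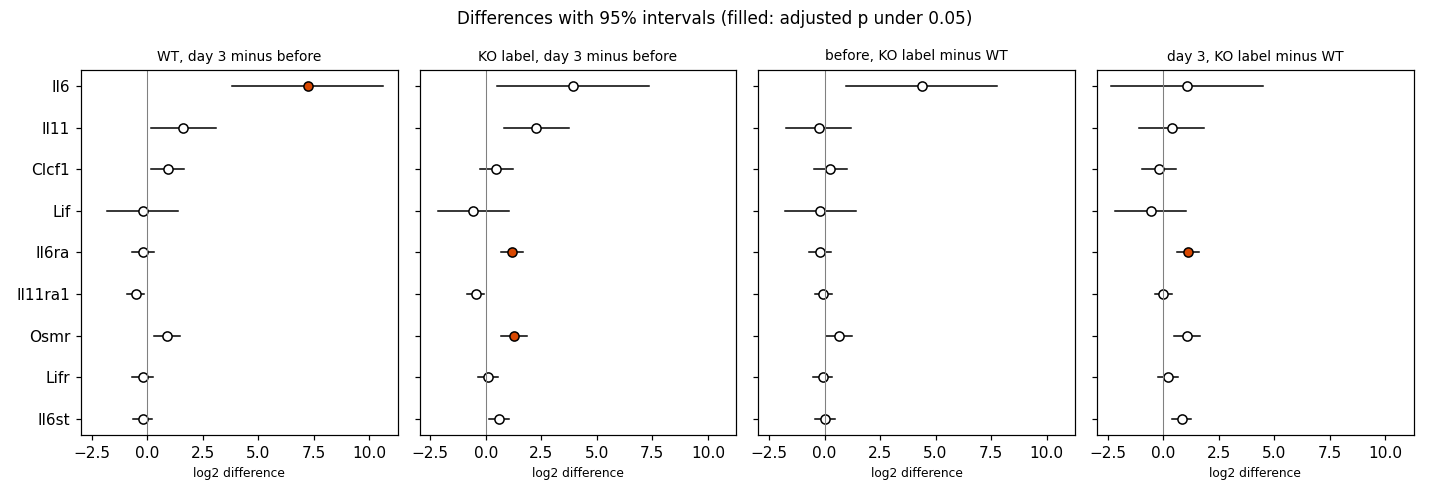
Log2 differences (x axis) of the 9 tested members in the 4 comparisons of 2 groups, with 95% intervals from the limma fit, where filled points passed an adjusted p of 0.05 over all genes. Il6 has the widest intervals, and its differences against WT before challenge are fitted values from a probe below background there; Il6ra and Osmr under the smSocs3-KO label are the filled points with narrow intervals.

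The members' calls were read against the share of all genes called. In the WT challenge response 1 of 9 members passed, Il6, where 4.63% of all genes did, and 1 of 9 passed the methods' threshold of p under 0.01 with a fold above 4 or below 0.25, where 1.24% did. Without WT replicate 4 at day 3, 5 members passed in WT, against 16.2% of all genes: Il6, Il11, Clcf1, Osmr and Il11ra1. In the smSocs3-KO challenge response 2 of 9 passed, Il6ra and Osmr, where 2.35% of all genes did, and 1 passed the methods' threshold, Il11, where 1.57% did. Without WT replicate 4 at day 3, 4 members passed, with Il6 and Il11 beside them, against 8.33% of all genes. Several members read near their unchallenged level on that array, so its omission is no independent support. With each array left out in turn, the counts ranged from 0 to 5 in WT and from 0 to 4 under the smSocs3-KO label. In the mean challenge response 5 of 9 members passed, against 22.9% of all genes. Il6, Il11, Osmr and Il6ra were higher and Il11ra1 was lower. The median difference of the 9 members there was 0.50, against -0.08 over all genes.

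Before challenge 0 of 9 members passed the adjusted threshold, where 0.0264% of all genes did, and 0 passed the methods' threshold, where 0.237% did. By limma, 2 members had an unadjusted p under 0.05 there, Il6 and Osmr, as did 997 of 22769 genes. At day 3, 1 of 9 passed, Il6ra, where 1.07% of all genes did, and 0 passed the methods' threshold, where 1.08% did. In the genotype by challenge interaction 0 members passed in limma, as did 0% of all genes, and 2 members, Il6ra and Il6st, and 1254 genes had an unadjusted p under 0.05. Arrays of the groups compared did not overlap for 3 members in the WT challenge response, where this held for 35.3% of all genes, and for 6 members in the smSocs3-KO response, where it held for 28.9%. Between genotypes they did not overlap for 2 members before challenge, against 11% of all genes, and for 3 members at day 3, against 21.4%.

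Lifr, the receptor chain for leukaemia inhibitory factor, was read by 3 probes, which disagreed. The mouse gene is known to encode a membrane receptor and a shorter secreted form. The array annotation ties 2 probes to transcript variant 1, at chr15:7147319-7147378 and chr15:7141150-7141209, and 1 probe to variant 2, at chr15:7135072-7135131 (all mm9, plus strand). Whether variant 1 transcripts also hold the last stretch was not determined here. The variant 2 probe read -0.38, -0.40 and -0.33 in WT before challenge and 0.22, -0.02 and 0.13 at day 3. The smSocs3-KO arrays read -0.61, 0.04 and -0.19 before challenge and 0.43, 0.56 and 0.48 at day 3. In each genotype its day 3 arrays lay above all arrays before challenge, WT replicate 4 included. Such groups did not overlap for 35.3% of all genes in WT and 28.9% under the smSocs3-KO label. In a fit over 32291 probes the variant 2 probe rose by 0.61 in the mean challenge response (SE 0.12, adjusted p = 0.0108 by limma). That call held when each array was left out in turn (adjusted p at most 0.0336). Of 21 alternatives 20 kept it and 1 did not (adjusted p = 0.0798). Taken singly, the response was 0.48 in WT (adjusted p = 0.122) and 0.74 under the smSocs3-KO label (adjusted p = 0.0556), and neither passed. The brighter variant 1 probe, which stood for the gene, read 1.91 to 2.53 at day 3 in WT against 2.25 to 2.38 before challenge, and its mean response was -0.06 (SE 0.15, adjusted p = 0.765). The dimmer variant 1 probe gave -0.20 (SE 0.14, adjusted p = 0.304). In WT it differed by -0.47 (SE 0.19, adjusted p = 0.159), with every day 3 array below every array before challenge. Under the smSocs3-KO label it differed by 0.08. Its fall in WT is part of its distance from the variant 2 probe, given next. Within arrays, the distance of the variant 2 probe from the brighter probe shifted by 0.67 at day 3, and that from the dimmer probe by 0.81. Each shift had p = 0.005 in a two-sided exact permutation test of 400 arrangements within genotypes, the smallest p these can give, and 0.005 after adjustment over both. These comparisons were chosen after the values had been seen.

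**Figure D2:**
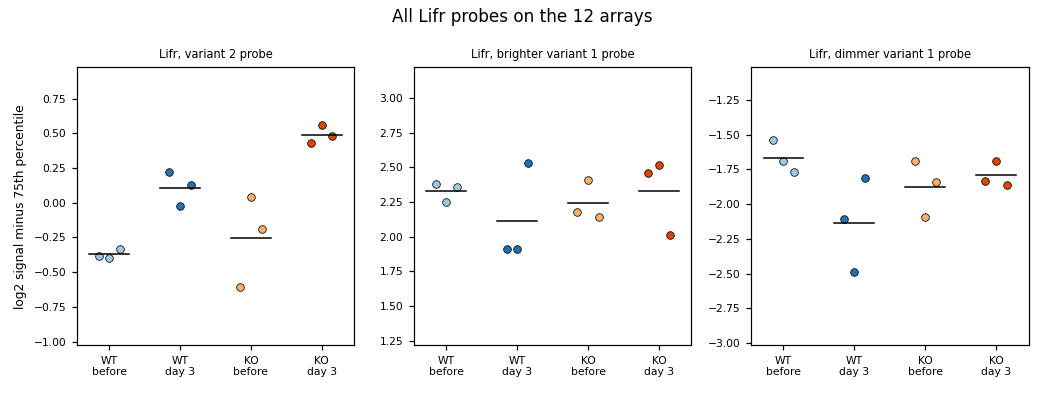
Signal of each Lifr probe (y axis, log2 intensity minus the 75th percentile of the array; scales differ between panels) on the 12 arrays in the 4 groups, where KO stands for the smSocs3-KO label, points are arrays and lines are group means. The variant 2 probe lies higher at day 3 than before challenge in each genotype, and the day 3 arrays of both variant 1 probes overlap those before challenge under the smSocs3-KO label. In WT the dimmer variant 1 probe lies lower at day 3, and the brighter one overlaps.

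Across the 12 arrays, some members varied with Socs3 and with each other and others did not. These correlations are descriptions over arrays that share slides and challenge, and values in residuals from the group means are given beside them. Osmr had a Pearson r with Socs3 of 0.954 (Spearman 0.832) and 0.882 in residuals. For Il6 and Socs3 it was 0.872 (Spearman 0.860) and 0.875 in residuals. Il6 and Osmr had 0.879 and 0.853 in residuals, and Il6 and Il11 had 0.824 and 0.849. Il11ra1 ran opposite to Il6, with -0.892 and -0.863 in residuals. Il6ra, by contrast, had 0.680 with Socs3 over all arrays and 0.0837 in residuals. Il6st had 0.613 with Socs3 and 0.214 in residuals, Lif had -0.152 and 0.256, and Lifr had -0.322 and -0.763. With Il6, Lif had 0.0549 and 0.607 in residuals, and Il6st had 0.262 and -0.125. On the 7 arrays of the first slide the sign was opposite for Il6ra and Il6st. There Il6ra had -0.56 and Il6st -0.603 with Socs3, and Il6st had -0.777 with Il6. Osmr had 0.854 and Il6 0.9 with Socs3 on those arrays. Values of Il6 in WT before challenge, not well above background, enter its correlations.

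**Figure D3:**
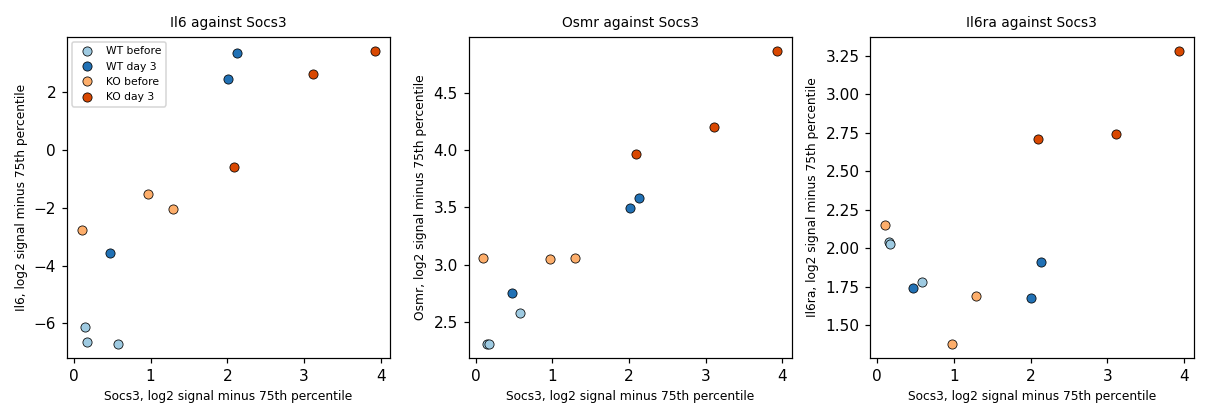
Signal of Il6, Osmr and Il6ra (y axes) against that of Socs3 (x axes), each as log2 intensity minus the 75th percentile of the array, for the 12 arrays coloured by group, where KO stands for the smSocs3-KO label. Il6 and Osmr increase along Socs3, and for Il6ra the 3 smSocs3-KO arrays at day 3 lie above all others, 1 of them at a Socs3 signal of 2.09 near those of WT replicates 1 and 3 at day 3.

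The tested genes whose pattern was most like a member's were named by the highest Pearson r over the 12 arrays. For Osmr they were Serpina3f (0.983), Tbxas1 (0.975) and Krtap11-1 (0.975), and Serpina3f encodes a serine protease inhibitor. For Il11 they were Dok2 (0.966), 1700012B15Rik (0.958) and Lilrb4 (0.954), of which Dok2 and Lilrb4 are known as genes of blood cells. The named gene closest to Il6 was Bcl2a1d (0.964), a survival gene of the Bcl2 family, after 2 probes without a gene symbol. For Clcf1 the list included Elk3 (0.951) and Lrdd (0.933). For Il6ra, Cd163, a scavenger receptor of macrophages, was the third (0.938), with 0.742 in residuals, where the first had 0.958 and 0.915. Il6st was closest to Adh1 (0.930), Il11ra1 to Fam19a5 (0.976) and Lifr to Susd2 (0.917). All are the highest values among 22769 genes over 12 arrays, so a high r comes in part from the search. Lif, whose 4 groups overlapped, also reached 0.965.

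Other genes of the gp130 family were examined as a list of 12, of which 10 were tested. In the mean challenge response 3 of 10 rose and 0 fell, against 12.6% of all genes that rose. Among them Cntf, a neurotrophic ligand of the family, rose by 0.57 (adjusted p = 0.0122 by limma), and Adam10, a protease that can shed the IL-6 receptor, by 0.35 (adjusted p = 0.0478). The Adam10 call was lost without any of 10 single arrays. No gene of this list passed in limma in either genotype difference. There 2 had an unadjusted p under 0.05 before challenge and 1 at day 3, as did 997 and 3765 of 22769 genes.

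Of 16 signal transducers and inhibitors, all tested, 3 rose and 1 fell in the mean challenge response, a share near the 22.9% called among all genes. Without WT replicate 1 before challenge 1 rose. Socs3 rose by 1.75 (3.36-fold, SE 0.37, adjusted p = 0.0121 by limma), Ptpn6, a phosphatase that acts on Jak kinases, by 1.12 (adjusted p = 0.0213) and Jak1 by 0.40 (adjusted p = 0.0375). Pias1, which encodes a SUMO ligase, fell by 0.45 (adjusted p = 0.0429). Stat3 itself had 0.42 (adjusted p = 0.0953). The median of the list was -0.02, against -0.08 over all genes. The Jak1 and Pias1 calls were lost without any of 9 and 10 single arrays, and that of Ptpn6 without WT replicate 1 before challenge. None of the 16 passed in limma in a single genotype or between genotypes. At an unadjusted p under 0.05 there were 2 in WT, 5 under the smSocs3-KO label, 0 before challenge and 4 at day 3. Of all 22769 genes there were 6052, 5520, 997 and 3765 in the same order. For Socs3 the response under the smSocs3-KO label was 2.26 (SE 0.53, adjusted p = 0.0528), which passed the methods' threshold.

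Genes known as targets of Stat3 formed a list of 19, which includes Socs3. It was drawn up with earlier results of these data known and is no independent evidence of a direction. In the mean challenge response 13 of 19 rose and 0 fell, against 12.6% of all genes that rose, and the list's median was 1.65. This count ranged from 8, without WT replicate 1 at day 3, to 16 with arrays left out in turn. Timp1, an inhibitor of matrix metalloproteinases, rose by 3.30 (9.87-fold, adjusted p = 0.00486 by limma), the acute phase gene Hp by 2.65 (adjusted p = 0.0108) and Serpina3n, another protease inhibitor, by 2.50 (adjusted p = 0.00551). Under the smSocs3-KO label 8 of 19 rose, against 1.56% of all genes, and in WT 1 did, Timp1, against 3.46%. With arrays left out in turn these counts ranged from 0, without smSocs3-KO replicate 3 before challenge, to 10 and from 0 to 7, the last without WT replicate 4 at day 3. An unadjusted p under 0.05 by limma was found for 16 of the 19 under the smSocs3-KO label and 10 in WT. Of all 22769 genes, 5520 and 6052 had one. At day 3 Cebpb, Saa3, Lcn2, Lrg1, Serpina3n and Lbp, 6 of 19, were higher under the smSocs3-KO label than in WT, against 0.905% of all genes. In that comparison 0 were lower, and the list median was 1.26 against -0.10 over all genes. The count of higher genes was 0 with the slide as a block and 2 to 7 with arrays left out in turn, the lowest without any 1 WT array before challenge or smSocs3-KO replicate 5 at day 3. In the interaction 0 of the 19 passed in limma, and 4 had an unadjusted p under 0.05, as did 1254 of 22769 genes. The list's mean difference from WT before challenge ranged from 0.411 to 1.49 in WT at day 3, from 0.589 to 1.40 under the smSocs3-KO label before challenge and from 2.41 to 3.94 at day 3. These means include Saa3 as measured. Its probe was well above background on 8 of 12 arrays and read -6.48, -6.50 and -5.25 in WT before challenge. The lowest signals well above background there were -4.64, -4.50 and -4.90, so the size of the means depends in part on signal below background. Of 12 genes that act upstream of IL-6, 9 were tested and 1 rose in the mean response, no larger a share than the 12.6% of all genes that rose. This was Ptgs2, the inducible cyclooxygenase, by 2.57 (5.95-fold, SE 0.65, adjusted p = 0.0206), a call lost without WT replicate 1 before challenge or at day 3. Tnf and Il1a had no kept probe, and Il1b had 1.24 (adjusted p = 0.228).

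Some markers of other cell types differed at day 3. Of 7 macrophage and monocyte genes, all well above background on 12 arrays, 5 rose in the mean challenge response and 0 fell, against 12.6% of all genes that rose, and 3 rose without WT replicate 1 before challenge. Examples were Ccr2, Cd68 and Cd14, higher by 2.06, 1.79 and 1.33 (adjusted p = 0.0242, 0.0071 and 0.0083 by limma). Their mean difference from WT before challenge ranged from -0.0746 to 0.046 in that group, from 0.0318 to 1.62 in WT at day 3, from 0.0488 to 0.587 under the smSocs3-KO label before challenge and from 1.41 to 1.54 at day 3. Il6ra, Osmr and Il6st were highest in this last group. The highest macrophage mean, 1.62, was that of WT replicate 1 at day 3, where Il6ra read 1.68, Il6st 3.87 and Osmr 3.49. The summed linear signal of the 7 macrophage and monocyte genes ranged from 169 to 213, 141 to 240, 122 to 299 and 141 to 174 in the same order of groups. Itgam, which did not pass, had the brightest probe of the list and made up the largest part of this sum. It read 7.13 to 7.51, 6.77 to 7.55, 6.44 to 8.08 and 6.18 to 6.64 in that order. WT replicate 4 at day 3 had the lowest macrophage mean among the day 3 arrays, 0.0318. The part of these cells in the members' values was not tested. Of 4 tested neutrophil genes, Ly6g rose by 1.20 (adjusted p = 0.00551), and of 6 smooth muscle genes, Myh11, the smooth muscle myosin heavy chain, fell by 1.12 (adjusted p = 0.0116). Of 5 lymphocyte genes, Cd3g fell by 1.38 (adjusted p = 0.0122), and of 4 red blood cell genes, Slc4a1 rose by 1.47 (adjusted p = 0.0442). In each of these neutrophil, smooth muscle, lymphocyte and red blood cell lists 1 gene passed and the others did not, where 22.9% of all genes passed. The Ccr2 and Slc4a1 calls were lost without any of 6 and 10 single arrays. No gene of the fibroblast, endothelial, adipocyte or mesothelial lists passed in limma in the mean response. There 1, 0, 0 and 1 had an unadjusted p under 0.05, as did 9030 of 22769 genes. Of these lists 1 gene, Dpt of the fibroblast list, passed between genotypes, at day 3, where 1.07% of all genes passed.

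**Figure D4:**
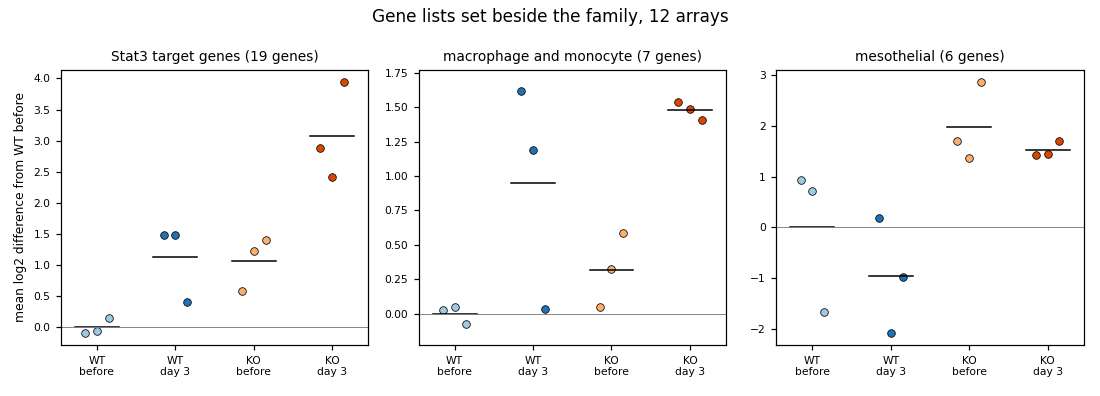
Mean log2 difference from WT before challenge (y axis; scales differ between panels) over the Stat3 target list, the macrophage and monocyte list and the mesothelial list on the 12 arrays, where KO stands for the smSocs3-KO label, points are arrays and lines are group means. The Stat3 targets lie between 2.41 and 3.94 under the smSocs3-KO label at day 3, and the mesothelial genes lie higher under the smSocs3-KO label at both times.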

How the data were processed

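Gene expression was measured in mouse aorta on 12 one-colour arrays, 3 per group, with groups and replicate numbers taken from the labels. For every array the authors deposited the table written by the scanner software. Its processed signal is a linear intensity for every spot, which the authors obtained with Feature Extraction (10.7.1.1 per the file headers, 9.5.1.1 per the submitters' processing notes) by background subtraction and spatial detrending. A spot is well above background when it exceeds the background by 13 of its SDs. The deposited value table holds intensity values of the same arrays, which the authors had quantile normalized before any log was taken (Spearman correlation with the scanner values at least 0.99997, median 30.2 on each array), and was used as an alternative.

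After removal of control and outlier spots, processed signals were put on a log2 scale, replicate spots of a probe were averaged, and each array was centred on its 75th percentile. A probe was retained when every array of some group read it well above background (32291 of 55681), and the brightest kept probe stood for a gene. Group means (4) were estimated in limma 3.58.1 (R 4.3.3) with 8 residual degrees of freedom, and p-values were adjusted over 22769 genes (Benjamini-Hochberg). The model was tested on simulated data. The smallest exact p of 3 against 3 arrays is 0.1. Where a probe was not well above background in a group, a bound is given beside any fitted difference. It holds for the processed signal and for the floor used, the lowest signal well above background on each array. In all, 6 contrasts were taken: day 3 against before within each genotype, smSocs3-KO against WT at each time, the mean of both responses and their difference.

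The members, lists and tests were chosen with earlier results of these data known. All members and Socs3 were named, and of each list at most 3 rises and 3 falls among genes past the adjusted threshold in the mean challenge response, with genes of other calls named where they were few. For each member the 3 genes of highest Pearson r were ranked, and of those with a gene symbol 1 to 3 are given; none of the 3 nearest to Lif had one. Stat3, Il1b, Tnf and Il1a were named besides. Some genes that this rule would name are not reported here. Within groups the correlation between arrays was 0.964 to 0.992, 55.4% to 61.2% of spots were well above background and 0 were saturated. Signal over background limits the dim probes, and 3 arrays per group limit the precision. Gene symbols are those of the array. Probe positions are on mm9 as the files give them, with no annotation of exons or UTRs used, and promoters are on GRCm38.p6. Alternatives in background correction, scaling, filter, probe choice, moderation, arrays fitted, slide and replicate number were run, and each array was left out in turn.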

Additional observations from a re-analysis of the deposited data

Results flagged for a closer look

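Il6ra differed from its level before challenge with opposite sign on the day 3 arrays of the 2 genotypes. Against the mean of their own genotype before challenge, the WT arrays at day 3 differed by -0.27, -0.05 and -0.21 and the smSocs3-KO arrays by 1.0, 0.97 and 1.54 on the log2 scale. The difference between both responses was 1.35 (SE 0.32), with an adjusted p of 0.659 by limma, so it was not called over all genes, and the WT response itself did not pass (-0.18, adjusted p = 0.639). It lay between 1.15 and 1.55 in the 23 alternatives, with adjusted p from 0.143 to 1. In WT the day 3 arrays read 1.68 to 1.91 and overlapped the arrays before challenge, at 1.78 to 2.04. Of the other 8 members tested, none had all arrays of one genotype above and all of the other below their own means. The share of all genes with such a pattern was not determined.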

How the results depend on the processing

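In 748 recomputed member values, 645 kept their direction and side of the threshold, 74 lost a call, 21 gained one and 8 changed sign, of which 0 had been called. Osmr was called in the mean challenge response in all 23 alternatives, Il11 in 22, Il6 in 21 of 22, Il11ra1 in 20 and Il6ra in 8. The counts of members called varied more. In WT, 1 member was called at the adjusted threshold and 0 with normexp, without the filter, with only probes well above background on all arrays (which drops Il6 from the test, and 0 then passed the methods' threshold), and with only the arrays compared. Under the smSocs3-KO label, 2 became 1 with quantile normalization, the authors' table, the slide as a block or only the arrays compared, and 0 with the percentile over detected probes or without the filter. At the methods' threshold 1 became 0 with normexp or the slide as a block and 2 with only the arrays compared. In the day 3 genotype difference 1 became 2 with normexp or with trended robust moderation, and 0 with quantile normalization, the percentile over detected probes, the authors' table, no filter, the slide as a block or only the arrays compared. Before challenge 0 became 1 at both thresholds with only the arrays compared, where Il6 passed (adjusted p = 0.0243). With arrays left out in turn, members called ranged from 0 to 5 in WT and from 0 to 4 under the smSocs3-KO label, from 0 to 1 at day 3 and from 3 to 6 in the mean response (3 without WT replicate 1 before challenge or at day 3), and at the methods' threshold from 1 to 2, 0 to 2 and, before challenge, 0 to 1. The upper ends in WT and under the smSocs3-KO label came without WT replicate 4 at day 3. With the slide as a block and that array left out, chosen after seeing the data, 5 members passed in WT, 2 passed the methods' threshold there and 2 under the smSocs3-KO label, and 0 passed at day 3 between genotypes. The share of all genes called in that fit is not given here, and over all alternatives up to 5030 genes were called in WT. Il6 at day 3 between genotypes turned from 1.07 to -2.09 in that fit and ranged from -1.08, without that array, to 2.37, without WT replicate 3 at day 3, with arrays left out in turn, and Lif in the mean response turned to 0.35. Lifr in the mean response turned to 0.12 as the mean of its probes and to 0.02 without smSocs3-KO replicate 5 at day 3. The causes were not tested.

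Same-numbered arrays deviated together in some pairs and apart in others (correlation of deviations -0.403 to 0.463), so the numbers were not taken to pair them. With a replicate block, members called fell to 0 in WT, to 0 under the smSocs3-KO label (0 also at the methods' threshold), to 0 at day 3 and to 1 in the mean response, and 1 passed the methods' threshold before challenge. Il6 at day 3 turned to -1.48, Lifr in the mean response to 0.01 and the interaction of Osmr to -0.17. All genes called at the adjusted threshold went from 1055 to 0 in WT, from 536 to 1 under the smSocs3-KO label, from 243 to 2 at day 3 and from 5223 to 860 in the mean response. Over all alternatives the counts over all genes ranged from 0 to 5030 in WT, 1 to 1911 under the smSocs3-KO label, 0 to 12 before challenge, 0 to 640 at day 3, 860 to 6706 in the mean response and 0 to 10 in the interaction, and at the methods' threshold from 104 to 607, 112 to 408, 9 to 91 and 95 to 381. The percentile over detected probes moved the median of all genes by -0.14 in the WT challenge response.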
